A study of Mus musculus with 144 samples.

Results

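Vehicle-treated primary mouse hepatocytes were compared between 24 and 48 h of culture. The series holds 36 groups of 4 RNA-Seq libraries, 1 for each combination of genotype, treatment and time, and the comparison used 16 libraries in 4 of those groups, 8 a side, chosen by labelled treatment and time alone. At each time 4 libraries were labelled WT (hepatocytes from C57BL/6NCrl mice) and 4 were labelled PkmΔDRE (hepatocytes from mice homozygous in every tissue for a short CRISPR deletion that removes an intronic dioxin response element of *Pkm*, the pyruvate kinase gene). The donors were male and 28 days old by their labels. All 16 cultures were plated on type I collagen in Williams' E medium with serum, moved to serum-free medium with insulin, transferrin, selenium, ascorbic acid and dexamethasone once attached, and received the DMSO vehicle in place of the dioxin TCDD (2,3,7,8-tetrachlorodibenzo-*p*-dioxin), a ligand of the aryl hydrocarbon receptor. The labels name neither the animal nor the isolation behind a library, so p-values measure the spread between libraries, which may be technical.

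Hepatocytes in the liver are quiescent and devote much of their RNA to secreted plasma proteins, drug metabolism, bile acid transport and nitrogen disposal. Once plated as a monolayer they lose much of that expression, flatten, lay down matrix and can enter the cell cycle. D-type cyclins and E2F act first and switch on the replication genes, and the genes for mitosis follow. Many mitotic genes are read from promoters with CCAAT boxes, bound by NF-Y, and a cell cycle homology region, TTTGAA, bound by the MuvB complexes with B-MYB and FOXM1.

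Between 16960000 and 30720000 read pairs per library were counted on genes, to 4 significant digits, and 13376 genes passed the filter on low counts. Expression is given as CPM, the pairs on a gene scaled to the size of the library, and a gene was called at an adjusted p-value under 0.05 with a fold change of at least 1.5. *Pkm* stood at 34 to 183 CPM in the 24 h libraries labelled WT and 71.7 to 284 CPM in those labelled PkmΔDRE, and at 140.9 to 1162 and 216 to 573 CPM at 48 h. The labels overlapped at both times, and the deletion leaves the exons in place, so these counts do not check the labels. Of the 16 libraries, 14 were most like the mean of a group of their own time among 22 group means, and libraries 24 and 94, both 48 h, were most like the WT vehicle mean of 72 h. The best match of libraries 20, 21, 89, 90, 91, 92 and 96 was a TCDD group of their own time. Library 21 (WT label, 48 h) held *Cyp1a1*, the main target of the dioxin receptor, at 3147 CPM, where the other 7 libraries of 48 h held 0.383 to 5.05 CPM, and correlated at 0.990 with the WT TCDD mean of 48 h and at 0.974 with its own group. It was also the lowest 48 h library for *Ccnb1*, *Cdc20*, *Ccnd1*, *Krt19*, *Hamp* and *Id1*. Libraries 89 and 90 (PkmΔDRE label, 24 h) held *Vim*, the intermediate filament of mesenchymal cells, at 18.2 and 68.96 CPM, against 573 to 1069 CPM in the other 6 libraries of 24 h. Several counts below are given without these 3 libraries as well.

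Of the 13376 genes, 1499 were called (11.2%). At 48 h 897 were higher (6.71%) and 602 lower (4.5%), with median log2 fold changes of 1.53 and -1.15, and for 265 and 147 of them the 24 h and 48 h libraries did not overlap. Across all genes tested, 423 (3.16%) had non-overlapping libraries, 270 higher and 153 lower, and 421 and 236 had them without library 21. Without libraries 21, 89 and 90 the test called 1417 genes, 824 higher and 593 lower. The balance of directions depended on the correction for base composition. After removal of the trend of every library on transcript GC content, 921 genes were higher and 1043 lower (46.9% higher, against 59.8%), and the median of all genes moved from -0.002 to -0.12 on the log2 scale.

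Among called genes with non-overlapping libraries and a mean of at least 1 CPM at one time, the 12 largest rises were mostly those of mitotic genes, with a few surface and matrix genes. *Cit*, the citron kinase of cytokinesis, rose from 0.0754 ± 0.115 to 8.01 ± 3.21 CPM (SD over 8 libraries), which is 6.81 on the log2 scale (SE 0.65, adjusted p = 4.03e-06). *Tspan8*, a tetraspanin of epithelial cells, rose from 0.494 ± 0.432 to 41.8 ± 25.2 CPM and by 6.27 on the log2 scale (SE 0.72, adjusted p = 2.32e-05). *Efemp1*, a fibulin of the extracellular matrix, rose by 5.28 (SE 0.70, adjusted p = 0.000102). The others among the first 12 were *Bst1* (5.56), *Pif1* (5.54), *Pimreg* (5.48), *Kif14* (4.90), *Cdkn3* (4.85), *Ccnb2* (4.83), *Kif23* (4.83), *H1fx* (4.82) and *Cdc20* (4.79). The 24 h means of *Cit*, *Bst1*, *Pimreg* and *H1fx* were under 0.1 CPM, so few pairs stood behind their size. The value for *Cit* was 7.68 without library 91, those for *Kif14* and *Kif23* were both 5.64 without library 91, that for *Bst1* was 7.05 without library 17 and that for *Pimreg* was 6.14 without library 18.

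By the same rule, the 12 largest falls were mostly those of metabolic genes of the mature hepatocyte, and called genes whose libraries overlap, such as *Ugt2b38* at -3.87, stand outside it. *Fabp1*, the liver fatty acid carrier, was at 12.5, 38.1 and 63 CPM at 24 h (lowest, median and highest of 8) and at 1.21, 1.68 and 4.13 CPM at 48 h. Every 48 h library was below every 24 h library, and *Fabp1* fell by 4.21 on the log2 scale (SE 0.35, adjusted p = 1.5e-06). *Gnmt*, which uses up S-adenosylmethionine in glycine methylation, went from 148, 224 and 952 CPM to 7.81, 18.2 and 25.7 CPM, again without overlap, and fell by 4.04 (SE 0.39, adjusted p = 4.57e-06). Below them came *Leap2*, a secreted liver peptide (-3.98), *Akr1c6*, a steroid dehydrogenase (-3.94), *Hpd* of tyrosine breakdown (-3.89), *Elovl3* of fatty acid elongation (-3.85), *Aspdh* (-3.77), *Haao* of tryptophan breakdown (-3.76), *Prodh2* of hydroxyproline breakdown (-3.60), *Rdh16f2* (-3.51), *Slc10a1* (-3.42) and *Cyp2e1* (-3.33).

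All 30 listed genes of G2 and mitosis were tested and all 30 rose, where 11.2% of all genes tested were called. Their median log2 fold change was 3.68, against -0.002 over all genes tested. The count stayed at 30 when any single library was left out, without libraries 21, 89 and 90 and with the GC trend removed. For 23 of the 30 the 24 h and 48 h libraries did not overlap, against 3.16% of all genes tested. *Ccnb1*, the cyclin that drives entry into mitosis, was at 0.599, 1.66 and 3.44 CPM at 24 h and 11.2, 54.5 and 78.9 CPM at 48 h. Library 21 was the lowest of 48 h and still stood above the highest of 24 h, and *Ccnb1* rose by 4.60 on the log2 scale (SE 0.40, adjusted p = 1.61e-06). *Cdc20*, the activator of the anaphase-promoting complex, went from 0.679, 2.33 and 6.17 CPM to 15.3, 67.8 and 135.7 CPM and rose by 4.79 (SE 0.48, adjusted p = 6.02e-06). *Mki67*, a marker of cycling cells, went from 0.119, 1.64 and 6.95 CPM to 4.20, 19.9 and 115.7 CPM, with overlap, and rose by 4.24 (SE 0.86, adjusted p = 0.00315), or by 3.61 without library 94. The mitotic kinases rose as well. *Plk1* went from 2.06 to 50.3 CPM in the mean (4.54), *Bub1* from 0.342 to 5.71 CPM (4.07), *Aurkb* from 2.75 to 22.3 CPM (3.01), *Cdk1* from 8.04 to 60.5 CPM (2.88) and *Aurka* from 8.28 to 63.6 CPM (2.88). *Foxm1*, the transcription factor of the mitotic genes, rose by 3.39, and *Birc5*, the survivin subunit of the chromosomal passenger complex, by 4.14. The smallest change in the list was that of *Mad2l1*, of the spindle checkpoint, at 1.63.

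**Figure D1:**
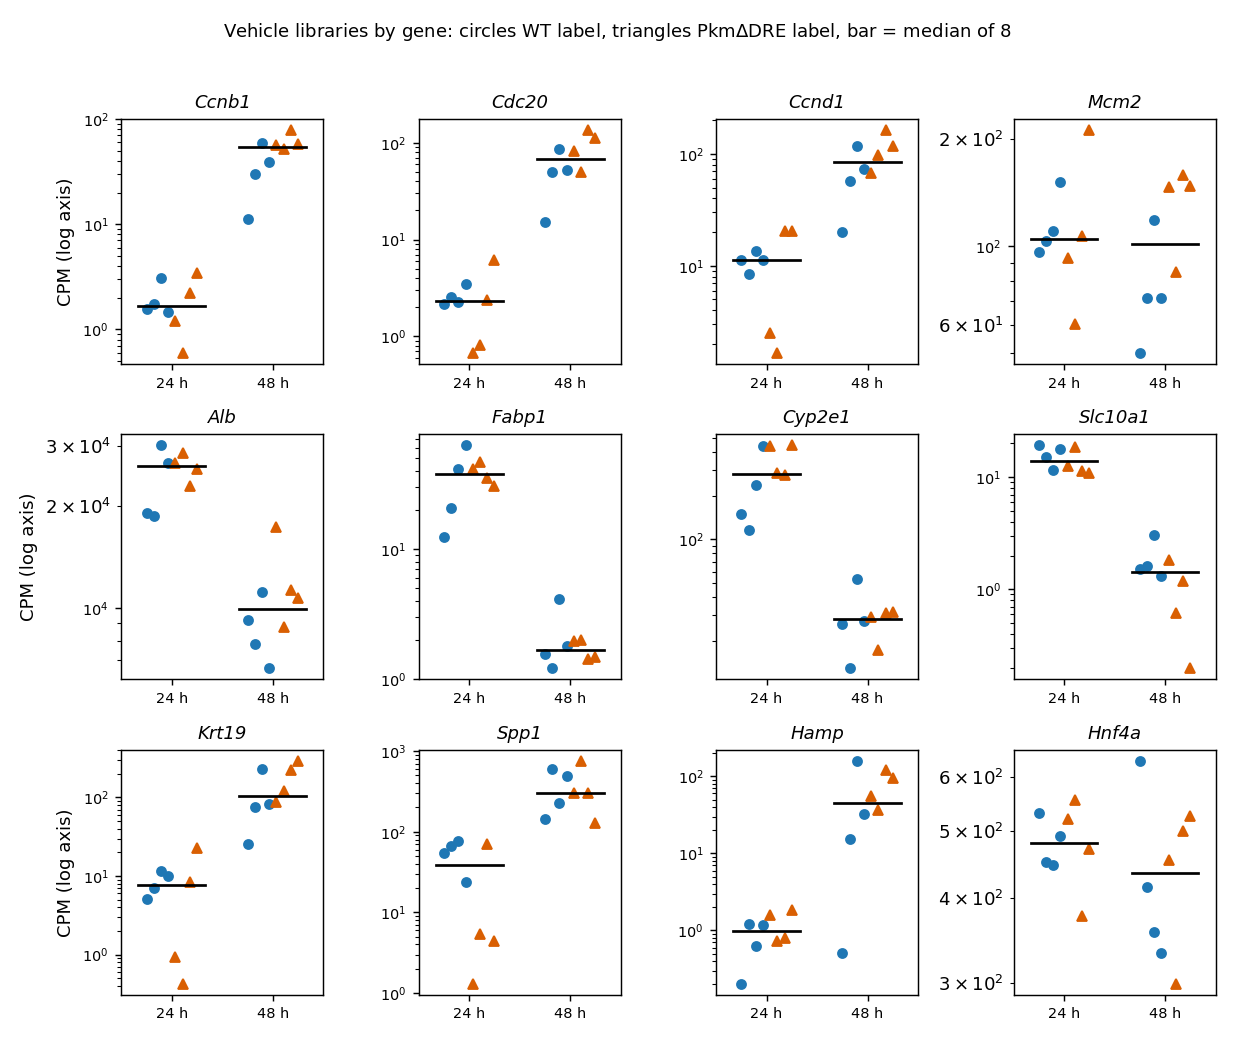
CPM on a log axis in each vehicle library at 24 and 48 h for 12 genes, with circles for the WT label, triangles for the PkmΔDRE label and a bar at the median of 8. *Ccnb1*, *Cdc20*, *Krt19* and *Spp1* were higher in every 48 h library, *Alb*, *Fabp1*, *Cyp2e1* and *Slc10a1* were lower in every 48 h library, and *Mcm2* and *Hnf4a* overlapped.

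Promoters of 4 of these genes and of a replication gene are printed to show the letters named above. The windows are those of RefSeq on GRCm38.p6, from 250 bases before the start site to 50 after it, read 5′ to 3′ on the gene's strand, and the capitals mark CCAAT and TTTGAA as read on that strand. *Ccnb1* lies at chr13:100786437-100786736 on the minus strand, *Ccnb2* at chr9:70421505-70421804 on the minus strand, *Cdc20* at chr4:118437294-118437593 on the minus strand, *Plk1* at chr7:122159185-122159484 on the plus strand and *Mcm5*, of the replicative helicase, at chr8:75109259-75109558 on the plus strand.
Ccnb1: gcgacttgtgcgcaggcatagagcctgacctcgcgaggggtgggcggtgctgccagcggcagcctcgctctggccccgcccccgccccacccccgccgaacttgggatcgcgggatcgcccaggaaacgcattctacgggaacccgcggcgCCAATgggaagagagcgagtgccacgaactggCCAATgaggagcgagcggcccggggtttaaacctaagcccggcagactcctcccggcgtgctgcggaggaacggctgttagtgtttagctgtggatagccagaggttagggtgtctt
Ccnb2: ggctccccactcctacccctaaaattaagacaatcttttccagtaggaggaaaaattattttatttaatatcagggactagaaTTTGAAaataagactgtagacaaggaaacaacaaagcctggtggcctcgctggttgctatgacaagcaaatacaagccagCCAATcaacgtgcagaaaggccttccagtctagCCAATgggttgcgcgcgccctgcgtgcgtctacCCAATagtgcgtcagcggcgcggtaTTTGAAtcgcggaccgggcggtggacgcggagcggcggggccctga
Cdc20: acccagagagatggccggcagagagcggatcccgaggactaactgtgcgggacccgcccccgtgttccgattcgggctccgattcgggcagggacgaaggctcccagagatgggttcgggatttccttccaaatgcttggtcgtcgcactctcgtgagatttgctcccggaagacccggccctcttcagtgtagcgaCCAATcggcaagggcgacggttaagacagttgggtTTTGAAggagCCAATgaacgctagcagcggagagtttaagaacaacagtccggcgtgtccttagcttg
Plk1: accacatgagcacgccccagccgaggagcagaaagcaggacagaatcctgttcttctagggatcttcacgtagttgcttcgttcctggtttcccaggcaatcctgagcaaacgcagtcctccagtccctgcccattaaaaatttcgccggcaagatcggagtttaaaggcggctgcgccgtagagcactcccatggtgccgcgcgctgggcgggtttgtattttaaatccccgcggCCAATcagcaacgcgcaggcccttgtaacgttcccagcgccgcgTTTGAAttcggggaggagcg
Mcm5: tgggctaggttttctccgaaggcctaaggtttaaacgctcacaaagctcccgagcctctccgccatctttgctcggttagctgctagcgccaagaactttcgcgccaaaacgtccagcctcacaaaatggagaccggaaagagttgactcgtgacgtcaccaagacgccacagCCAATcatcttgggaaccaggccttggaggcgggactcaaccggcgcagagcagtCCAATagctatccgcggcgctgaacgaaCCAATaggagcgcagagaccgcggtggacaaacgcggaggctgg

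Both kinds of letters were searched on both strands of 27018 windows of 300 bases. A window was found for 24 of the 30 genes of G2 and mitosis. CCAAT was in 19 of the 24 (79.2%), against 37.9% of all windows and 38.7% of the 9991 windows of genes tested. It was in 43.7% of the 695 windows of genes called higher and 42.3% of the 468 windows of genes called lower. TTTGAA was in 16 of the 24 (66.7%), against 18.1% of all windows and 12.1% of those of genes tested. It was in 18.6% and 11.3% of the windows of genes called higher and lower. Both were in 15 of the 24 (62.5%), against 7.12% of all windows, and 11.1% and 4.7% of those of genes called higher and lower. Of 31 windows of the G1 and S phase list, 18 held CCAAT (58.1%) and 3 held TTTGAA (9.68%). The median GC content was 52.7% over all windows, 60.7% for those of genes tested, 60.7% for the mitotic list and 59.3% for the G1 and S phase list. Of the printed windows, that of *Ccnb1* holds CCAAT 2 times and no TTTGAA, that of *Ccnb2* holds them 3 and 2 times, and that of *Mcm5* holds CCAAT 3 times and no TTTGAA. A match of letters is a description of the window and says nothing of binding in these cultures.

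The genes of G1 and S phase did not move as a block. Of 39 tested, 12 rose (30.8%, against 11.2% of all genes called) and none fell, with a median of 0.40 on the log2 scale. The count was 7 without library 23 or library 95, 8 (with 1 fallen) without library 90, 8 (with 1 fallen) under the GC correction, and 10 without libraries 21, 89 and 90. *Ccnd1*, the cyclin that carries growth signals into the cycle, was at 1.67, 11.3 and 20.6 CPM at 24 h and 19.9, 85.4 and 164 CPM at 48 h. Only library 21 of 48 h overlapped the 24 h libraries, and *Ccnd1* rose by 2.97 (SE 0.49, adjusted p = 0.000688). *Rrm2*, the regulated subunit of ribonucleotide reductase, rose by 2.12 (SE 0.33, adjusted p = 0.000393), *Ccnd2* by 1.87 (SE 0.31, adjusted p = 0.000677) and *Tk1*, thymidine kinase, by 1.76. The replicative helicase was already expressed at 24 h. *Mcm2* was at 60.6, 105.1 and 212 CPM at 24 h and 50.2, 101.6 and 158 CPM at 48 h, a log2 fold change of -0.17 (SE 0.25, adjusted p = 0.769), and the other subunits *Mcm3*, *Mcm4*, *Mcm5*, *Mcm6* and *Mcm7* had values of -0.23 to 0.32 and were not called. *Pcna*, the sliding clamp, had -0.21 and *Ccne1* -0.23, also not called.

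**Figure D2:**
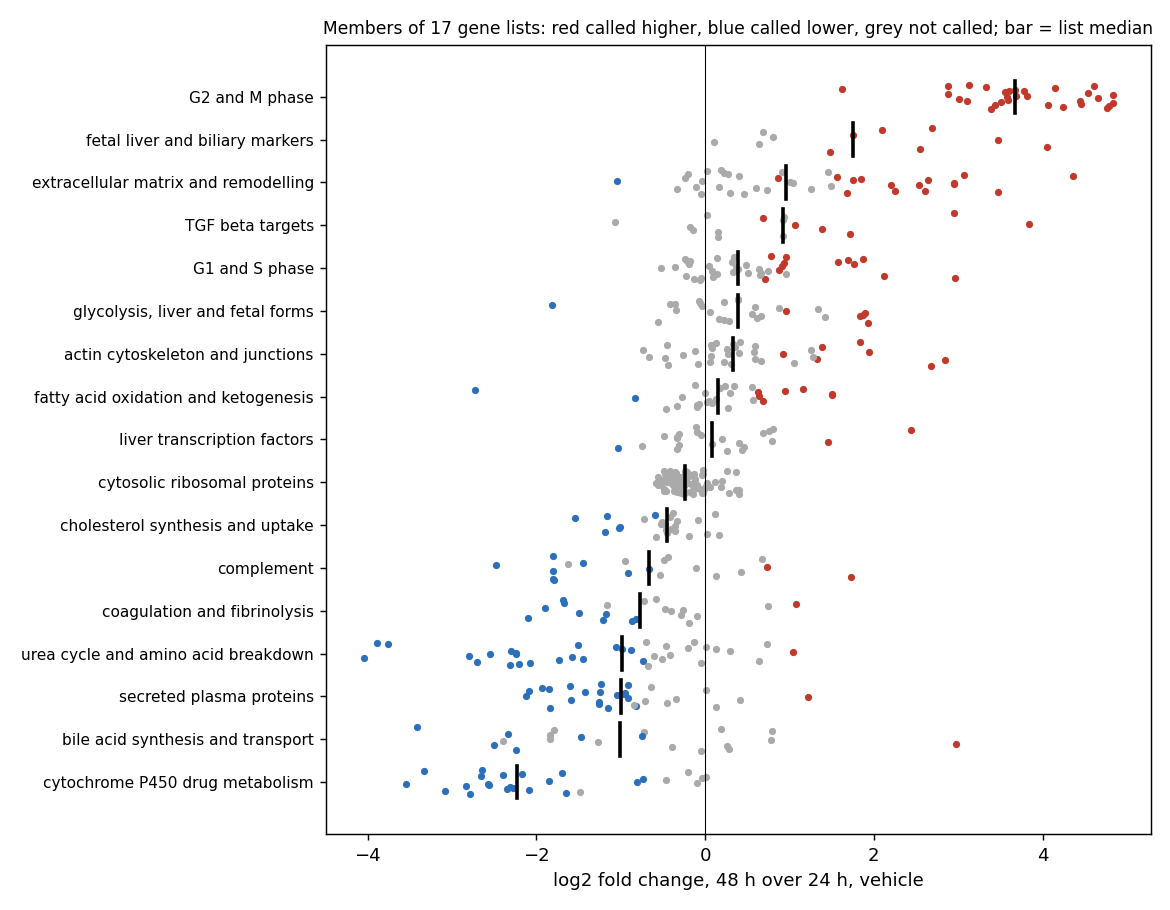
Log2 fold change from 24 to 48 h of each tested member of 17 gene lists, with red for genes called higher, blue for genes called lower, grey for the rest and a bar at the list's median. The mitotic list lies wholly above 0 with a median of 3.68, and the list of drug-metabolizing cytochrome P450 genes has the lowest median, -2.23.

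Most P450 genes listed for drug metabolism fell. Of 26 tested P450 genes listed for it, 20 fell (76.9%, against 11.2% of all genes called) and none rose, with a median of -2.23. Of all 55 tested *Cyp* genes 28 fell (50.9%) and none rose. *Cyp2e1*, which oxidizes ethanol and paracetamol, was at 116.1, 283 and 443 CPM at 24 h and 13, 28.5 and 53.2 CPM at 48 h, without overlap, and fell by 3.33 on the log2 scale (SE 0.33, adjusted p = 5.09e-06). *Cyp3a11*, the main steroid and drug hydroxylase of its family, went from 45.8, 174 and 529 CPM to 4.35, 15.8 and 92.6 CPM and fell by 3.54 (SE 0.44, adjusted p = 5.32e-05). The 92.6 CPM was that of library 21, the only 48 h library above the lowest of 24 h. *Cyp2c29* fell by 2.66 (SE 0.37, adjusted p = 0.000141) and *Cyp3a25* by 3.08 (SE 0.27, adjusted p = 1.5e-06). Reads that fit several places were not counted, so the near-identical *Cyp2c*, *Cyp3a* and *Cyp4a* copies are uncertain one by one. Of 7 listed targets of the aryl hydrocarbon receptor none was called. Without library 21, and without libraries 21, 89 and 90, 1 was called lower, *Cyp1a2*. *Cyp1a1* had a log2 fold change of 2.31 (SE 2.56, adjusted p = 0.673) that rested on library 21 and was -2.11 without it. At 24 h library 20 held *Cyp1a1* at 55.3 CPM, where the other libraries of the WT label held 0.692 to 2.07 CPM.

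Among 28 secreted plasma proteins 19 fell and 1 rose (71.4% called, against 11.2% of all genes), with a median of -1.0, and the 1 that rose did not without libraries 89 and 90. The shares called were 50% in coagulation, 52.6% in complement and 31.8% in the acute phase list. *Alb*, albumin, was at 18720, 26180 and 30180 CPM at 24 h and 6625, 9938 and 17310 CPM at 48 h, without overlap, and fell by 1.26 (SE 0.19, adjusted p = 0.000357). *Serpina3k*, a kallikrein-binding serpin, fell by 2.09 (SE 0.24, adjusted p = 2.24e-05) and *Hrg*, histidine-rich glycoprotein, by 2.13 (SE 0.18, adjusted p = 1.5e-06). In coagulation 9 of 20 fell and 1 rose (0 rose without library 18, 19, 20, 22, 24, 89, 93, 94 or 95), and among the fallen were *Fgg*, the fibrinogen gamma chain (-2.10), *Plg*, plasminogen (-1.90), *F10* (-1.69) and *F2*, prothrombin (-0.87). In complement 8 of 19 fell and 2 rose, of which *C1s1* lost its call without library 20, 22, 23, 89, 90, 92, 93, 94 or 95. *C8a* (-2.48) and *C9* (-1.80) of the membrane attack complex fell, *Mbl2*, a mannose-binding lectin, rose by 1.73 (SE 0.36, adjusted p = 0.00413), and *C3* had 0.13 and was not called. Of 22 acute phase genes 6 fell, 10 without library 19, and *Hamp* rose, as described below, and *Crp* (-2.49), *Serpina3m* (-2.82) and *Apcs* (-1.82) were among the fallen.

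In the urea cycle and amino acid breakdown 20 of 35 genes fell and 1 rose (60% called, against 11.2% of all genes), with a median of -0.98. *Cps1*, the first step of the urea cycle, was at 208, 483 and 894 CPM at 24 h and 45.6, 72.8 and 157 CPM at 48 h, without overlap, and fell by 2.80 (SE 0.32, adjusted p = 1.89e-05). *Ass1*, a later step, fell by 1.45 (SE 0.23, adjusted p = 0.000479). The 1 gene that rose was *Gpt2*, the mitochondrial alanine aminotransferase, by 1.04 (SE 0.20, adjusted p = 0.00187). Of 20 bile acid genes tested 6 fell and 1 rose (35%), or 10 fell under the GC correction, and 4 fell and 2 rose without libraries 89 and 90. *Slc10a1*, the sodium-dependent importer, went from 10.8, 13.9 and 19.2 CPM to 0.198, 1.42 and 3.06 CPM, without overlap, and fell by 3.42 (SE 0.36, adjusted p = 9.66e-06). *Slc27a5*, which activates bile acids with coenzyme A, fell by 2.33, the importer *Slco2b1* by 2.24 and *Cyp7b1* of the alternative synthesis route by 1.47. *Abcc4*, an exporter of the basolateral membrane, rose by 2.98 (SE 0.50, adjusted p = 0.000804), without overlap. *Cyp7a1*, the rate-limiting enzyme of the classical route, was below the filter on low counts.

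Transcription factors of the liver were called at about the share of all genes tested, 13% against 11.2%. Of 23 tested, 2 rose and 1 fell (4 rose without library 89, and 3 rose and 2 fell without library 90), and the median was 0.08. *Hnf4a* was at 376, 481 and 555 CPM at 24 h and 300, 434 and 634 CPM at 48 h, a log2 fold change of -0.11 (SE 0.16, adjusted p = 0.758), and *Cebpa* had -0.10 (SE 0.41, adjusted p = 0.937). *Nr1h3*, the oxysterol receptor LXRα, fell by 1.03 (SE 0.23, adjusted p = 0.00742). *Nr0b2*, the repressor SHP, rose by 2.44 (SE 0.59, adjusted p = 0.0115) from 0.299 to 1.67 CPM, and *Onecut1* rose by 1.46 (SE 0.36, adjusted p = 0.0136).

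Glucose and lipid genes moved in part. Against 11.2% of all genes tested, the shares called were 22.2% in glycolysis and 29.4% in gluconeogenesis and glycogen. They were 25% in cholesterol synthesis and 32.1% in fatty acid oxidation. *Pkm*, which encodes the pyruvate kinases PKM1 and PKM2 and is counted here as 1 gene, was at 34, 102.1 and 284 CPM at 24 h and 140.9, 334.5 and 1162 CPM at 48 h, with overlap, and rose by 1.93 (SE 0.48, adjusted p = 0.0139). The 1162 CPM came from library 23, and the value was 1.39 without it. *Pklr*, the adult liver form, had 0.62 (SE 0.39, adjusted p = 0.376). *Pfkm* rose by 0.96 and *Pfkp* by 1.84, or 1.19 without library 23. In all 5 of 27 glycolysis genes rose, the others being *Hk1* and *Hk2*, and the count was 3 without library 17, 18, 20, 23, 89 or 95. Of 17 gluconeogenesis and glycogen genes 5 fell and none rose. *Fbp1* fell by 1.51 (SE 0.22, adjusted p = 0.000204), *Slc2a2*, the liver glucose transporter, by 1.49 and *Gys2*, liver glycogen synthase, by 1.69. *G6pdx*, the entry to the pentose phosphate pathway, rose by 1.96 (SE 0.25, adjusted p = 6.64e-05), without overlap. Of 24 cholesterol genes 6 fell and none rose, with a median of -0.46, *Cyp51* (-1.17) and *Msmo1* (-1.18) among them. *Scd1*, the desaturase, fell by 1.63 (SE 0.33, adjusted p = 0.00318). In fatty acid oxidation 7 of 28 rose and 2 fell, with 4 risen without library 89. *Cpt1a*, which admits fatty acids to mitochondria, rose by 0.69 (SE 0.15, adjusted p = 0.00486) and *Acaa1b*, a peroxisomal thiolase, fell by 2.72 (SE 0.47, adjusted p = 0.000903).

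Fetal and biliary markers rose. Of 11 tested, 7 rose (63.6%, against 11.2% of all genes called) and none fell, with a median of 1.76, and the count was 7 without libraries 21, 89 and 90. *Krt19*, a keratin of bile duct and progenitor cells, was at 0.427, 7.72 and 22.9 CPM at 24 h and 25.7, 103.9 and 292 CPM at 48 h, without overlap, and rose by 4.05 (SE 0.67, adjusted p = 0.00067). *Spp1*, osteopontin, went from 1.31, 38.99 and 77.5 CPM to 127.3, 304 and 757 CPM, without overlap, and rose by 3.47 (SE 0.72, adjusted p = 0.00398), or 4.38 without library 91. *Afp*, alpha-fetoprotein, went from 5.43, 8.06 and 13.7 CPM to 16.1, 22.2 and 41.7 CPM, without overlap, and rose by 1.48 (SE 0.20, adjusted p = 0.000118). *Krt7*, *Sox4*, *Cd24a* and *Igf2bp1* also rose, by 2.69, 1.76, 2.09 and 2.55. *Sox9*, the transcription factor of the bile duct, had 0.10 (SE 0.30, adjusted p = 0.905), *Epcam* had 0.63 and was not called at means of 0.339 and 0.456 CPM, and *Prom1*, *Cftr*, *Muc1* and *Anxa13* were below the filter.

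Matrix genes rose in 15 of 38 cases, with a median of 0.96, and *Mmp19* fell, a call lost without library 18, 19, 20, 22, 23, 24, 89, 90, 94, 95 or 96. *Timp2*, an inhibitor of matrix proteases, rose from 1.18 ± 1.13 to 24.0 ± 14.4 CPM (SD, n = 8), by 4.36 on the log2 scale (SE 0.55, adjusted p = 6.2e-05), without overlap. *Fn1*, fibronectin, rose by 1.39 (SE 0.28, adjusted p = 0.00351). The laminin chains *Lama5* (2.54) and *Lamb3* (1.85) rose, as did the crosslinking enzymes *Lox* (2.61) and *Loxl2* (1.75). *Col1a1*, the chain of fibrillar collagen, was at 0.214, 1.15 and 2.67 CPM at 24 h and 1.93, 7.28 and 13.6 CPM at 48 h, with overlap, and rose by 2.64 (SE 0.51, adjusted p = 0.00211). The share called was 42.1% in the matrix list, against 11.2% of all genes tested. Of 35 actin and junction genes 7 rose (20%), with *Lgals1*, galectin-1, at 2.68 and *S100a6* at 1.95, but without libraries 89 and 90 only 4 rose and 3 fell. *Vim* was at 18.2, 720 and 1069 CPM and 730, 1356 and 1790 CPM, 1.24 on the log2 scale (SE 0.54, adjusted p = 0.166), and *Actb* had -0.67 (SE 0.35, adjusted p = 0.264).

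The summed level of stellate cell markers was higher at 48 h, as were 15 of 38 matrix genes. The summed CPM of 15 stellate cell and fibroblast markers, collagen genes of the matrix list among them, was 29.9 to 77.8 at 24 h and 52.99 to 188 at 48 h, and differed in a two-sided exact permutation test over 12870 splits (p = 0.000311, 0.00311 adjusted over 10 library measures). Within that sum *Ecm1* alone had a median of 23.7 CPM at 24 h and 75.2 CPM at 48 h. *Col1a1*, *Col1a2*, *Col3a1* and *Ecm1* rose among 13 tested, and 6 rose without library 21. *Reln* fell, a call lost without library 19, 22, 23, 24, 89, 90, 91, 94, 95 or 96. The share called was 38.5%, against 11.2% of all genes tested. The defining markers *Lrat* (1.94), *Des* (0.87), *Pdgfrb* (1.26) and *Pdgfra* (0.86) were not called at means of at most 1.87 CPM. *Lum* and *Colec11* were below the filter. Summed macrophage markers were 69.9 to 359 CPM at 24 h and 60.5 to 192 CPM at 48 h (p = 0.0438, exact permutation, 0.0876 adjusted). Of 13 tested, 2 were called (15.4%, against 11.2% of all genes tested), *Clec4f* and *Cd5l* of Kupffer cells, which fell by 2.78 and 1.67. The rest were not called, and 23.1% of the 13 had positive values, namely *Mrc1* (0.83), *Lyz2* (0.23) and *Marco* (0.16). *Ptprc* and *Timd4* were below the filter. Summed endothelial markers were 179 to 965 CPM and 210 to 937 CPM (p = 0.767, exact permutation). Of 15 endothelial markers 2 were called (13.3%, near the 11.2% of all genes tested). *Lyve1* of the sinusoids fell by 1.80 and *Gpihbp1* rose by 1.44, a call lost without library 17, 18, 19, 21, 23, 24, 89, 90, 91, 93, 94, 95 or 96. The rest were not called, *Clec4g* with 1.75 and *Dnase1l3* with 1.05 among them. Of 8 cholangiocyte markers tested 3 rose (37.5%, against 11.2% of all genes tested), the *Krt19*, *Spp1* and *Krt7* named above. Their summed list level was 952 to 3140 CPM at 24 h and 1440 to 3130 CPM at 48 h (p = 0.845, exact permutation), a sum that includes *Ambp*, which hepatocytes also express. Among 14 lymphocyte, neutrophil and red cell markers 7 were at 0 and 6 below the filter. The share of unmapped pairs went from 6.61% to 5.54% in the mean (p = 0.0326, exact permutation, 0.0876 adjusted). The part of these cells and measures in the results was not tested, and in bulk RNA fewer cells of a type and less RNA per cell cannot be told apart.

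Hepcidin and 3 genes of the *Id* family rose. *Hamp*, which encodes the iron hormone hepcidin, was at 0.204, 0.994 and 1.84 CPM at 24 h and 0.504, 45.5 and 159 CPM at 48 h. The 0.504 CPM was that of library 21, and the other 7 libraries of 48 h stood at 15.4 CPM or above. *Hamp* rose by 6.00 on the log2 scale (SE 0.79, adjusted p = 8.9e-05), or by 5.28 without library 23. *Id1*, which like *Hamp* is a classical target of bone morphogenetic protein signalling, went from 0.645, 1.10 and 2.67 CPM to 0.907, 18.2 and 54.1 CPM, with library 21 again the only one to overlap, and rose by 3.84 (SE 0.57, adjusted p = 0.000276). *Id3* rose by 1.71 and *Id2* by 1.07. *Smad7*, the inhibitor in the same pathway, had 0.92 (SE 0.35, adjusted p = 0.104).

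The share called in inflammatory and stress lists ranged from 3.7% to 18.8%, against 11.2% of all genes tested, and rested on few genes in each. Of 21 genes of NF-kB and chemokines 1 rose (4.76%), or 2 without library 21 and 3 without libraries 21, 89 and 90. Of 27 interferon-stimulated genes 1 rose (3.7%), or 2 without library 21. Of 25 p53 targets 2 rose (8%), or 1 rose and 1 fell without library 21 and none was called without libraries 89 and 90. Of 25 immediate early genes 2 rose (8%), or 3 rose and 1 fell without libraries 89 and 90. *Ccl20*, a chemokine for immature dendritic cells, rose by 4.91 on the log2 scale, or by 3.05 without library 23 and 6.19 without library 91. Among 32 genes of the unfolded protein and integrated stress responses 5 rose and 1 fell (18.8%), or 6 rose and none fell without libraries 89 and 90, and *Pdia6*, a disulfide isomerase of the endoplasmic reticulum, rose by 1.06. Of 25 NRF2 antioxidant genes 4 rose (16%), with 1 to 4 rising when 1 library was left out. Of 17 heat shock chaperones 1 rose and 1 fell (11.8%), with 0 to 2 falling when 1 library was left out.

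Housekeeping lists served as a contrast, set against the 11.2% of all genes tested that were called. None of 84 cytosolic ribosomal protein genes was called, with a median of -0.24, none of 11 protein-coding mitochondrial genes was called, and 1 of 75 nuclear respiratory chain genes rose and 1 of 38 proteasome genes fell.

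Within the labels the interval was fitted on 4 against 4 libraries. In libraries labelled WT 733 of 13116 genes were called, 390 higher and 343 lower, and in those labelled PkmΔDRE 208 of 12890 were called, 85 of them lower. An interaction term tested whether the labels differed, and 0 of 14058 genes passed (0%) at an adjusted p-value under 0.05 in edgeR, with 410 at an unadjusted p under 0.05, while DESeq2 gave 1 gene, *Nyx*. *Ccnb1* had 4.17 in the WT label and 5.06 in the PkmΔDRE label, *Krt19* 3.65 and 4.47, *Fabp1* -3.95 and -4.43, *Cyp2e1* -2.93 and -3.69, *Alb* -1.41 and -1.09, and *Hamp* 6.08 and 5.98.

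The same interval was fitted with 10 nM TCDD, in 16 other libraries that share none with the vehicle fit. There 2162 of 13067 genes were called (16.5%), 1273 higher and 889 lower. Of the 1499 genes called with vehicle 1464 were tested with TCDD, 1238 of them were called in the same direction (84.6%, and 58.2% of the 2128 TCDD calls that were tested with vehicle), and 0 in the opposite direction. The sign was shared by 1460 (99.7%), with a median size of 1.35 with vehicle and 1.20 with TCDD on the log2 scale. The difference between the treatments had its own interaction test, and 0 of 14225 genes passed (0%) in edgeR, with 0.808% at an unadjusted p under 0.05, and DESeq2 gave 1, *Gm37891*. *Ccnb1* had 4.60 with vehicle and 4.48 with TCDD, *Cdc20* 4.79 and 4.50, *Fabp1* -4.21 and -4.22, *Slc10a1* -3.42 and -3.30, *Krt19* 4.05 and 3.74, and *Hamp* 6.00 and 3.99. Library 57, a TCDD library labelled 48 h, lay within the 24 h TCDD range for *Ccnb1* at 2.35 CPM (0.15 to 2.36 at 24 h, 20.7 to 42.9 in the other 48 h libraries), *Cdc20* and *Krt19*, and below it for *Hamp* at 0 CPM, but within the range of the other 48 h libraries for *Fabp1* and *Slc10a1*. Its omission was chosen after seeing the data. Without it 2423 genes were called with TCDD, and the TCDD values were 4.72 for *Ccnb1*, 4.71 for *Cdc20*, -4.10 for *Fabp1*, -3.36 for *Slc10a1*, 3.89 for *Krt19* and 4.10 for *Hamp*.

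**Figure D3:**
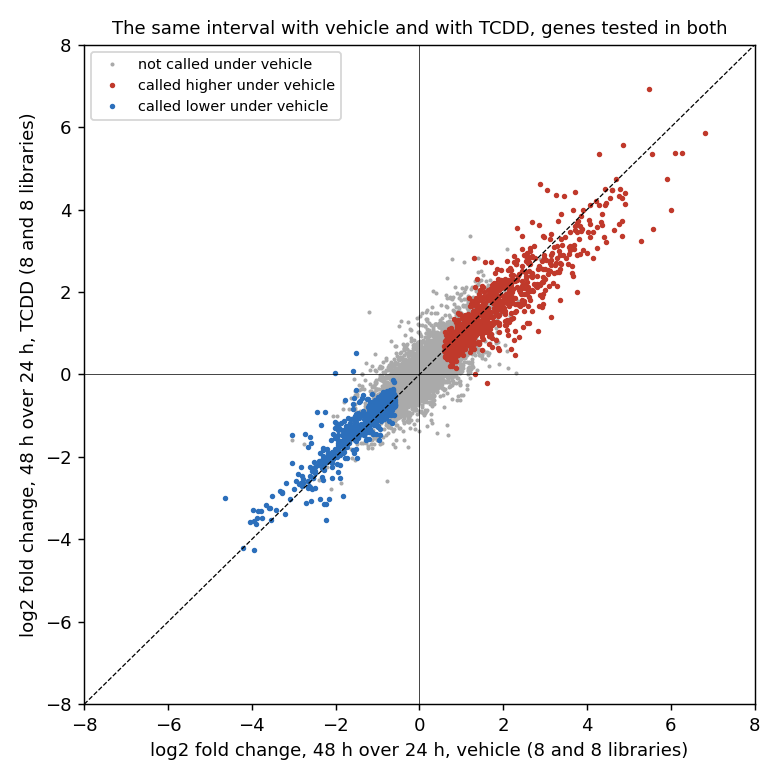
Log2 fold change from 24 to 48 h with vehicle on the x axis and with TCDD on the y axis, 1 point per gene tested in both fits, each on 8 against 8 libraries. Genes called with vehicle lie along the diagonal, with the same sign in 99.7% of them.

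The vehicle libraries of the other 7 times place the interval in the course of the culture, as medians of 8 libraries and with no test. *Ccnb1* was at 0.414 to 0.571 CPM from 2 to 12 h, 1.66 CPM at 24 h, 54.5 CPM at 48 h and 18.2, 9.42 and 3.75 CPM at 72, 96 and 120 h, so the highest median was that of 48 h. *Mcm2* was at 7.35 CPM at 2 h, 46.9 CPM at 12 h, 105.1 CPM at 24 h and 101.6 CPM at 48 h, then 48.8 CPM at 72 h. *Krt19* was under 1 CPM up to 12 h and peaked at 147 CPM at 72 h. *Afp* went on to 193 CPM at 96 h. *Hamp* was at 611 CPM at 2 h, lowest at 24 h with 0.994 CPM, at 45.5 CPM at 48 h and at 17.2 CPM at 72 h. *Cyp2e1* passed from 5309 CPM at 2 h through 283 and 28.5 CPM at 24 and 48 h to 0.0887 CPM at 120 h, whereas *Alb* passed from 139800 CPM through 26180 and 9938 CPM to 6669 CPM at 72 h and 5693 CPM at 120 h. *Hnf4a* was at 1265 CPM at 2 h and between 344 and 521 CPM from 24 h on. A PkmΔDRE library labelled 4 h and another labelled 96 h went against their times, with *Cyp2e1* at 0.107 and 2823 CPM, and the medians without them were 3518 CPM at 4 h and 0.201 CPM at 96 h, against 3302 and 0.241 CPM with them.

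**Figure D4:**
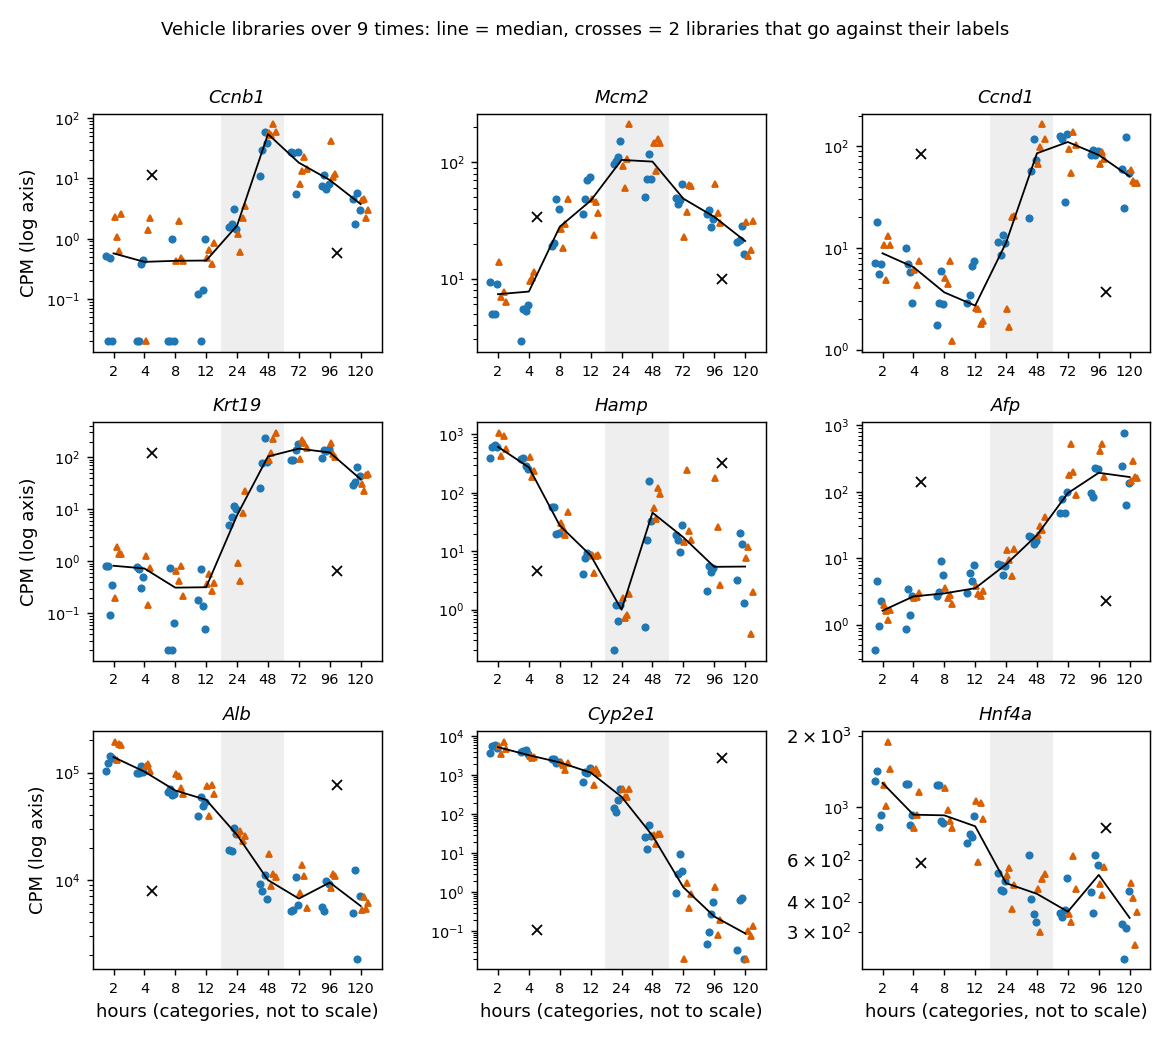
CPM on a log axis in the 72 vehicle libraries at 9 times, spaced as categories, for 9 genes, with circles for the WT label, triangles for the PkmΔDRE label, a line through the medians, a grey band over 24 and 48 h, crosses for the PkmΔDRE libraries of 4 and 96 h that went against their times and libraries at 0 drawn at 0.02 CPM. *Ccnb1* peaks at 48 h with a median of 54.5 CPM, *Hamp* is lowest at 24 h, and *Cyp2e1* declines throughout.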

How the data were processed

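Primary hepatocytes were sequenced as paired-end mRNA libraries. Per the labels and the submitters' processing notes, the authors checked reads with FastQC 0.11.3, trimmed them with Trimmomatic 0.39, aligned them to GRCm39 with STAR 2.7 and tested with DESeq2, and deposited the unstranded gene counts of uniquely mapped pairs for 55359 genes, unnormalized. Reads in near-identical copies or antisense pairs therefore cannot be assigned. Pairs on no gene (3.94% to 13.9%) stayed out of library sizes. Symbols for 52083 genes came from a GENCODE GRCm38 table.

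From these counts edgeR 4.0.16 (R 4.3.3, TMM scaling) fitted its robust quasi-likelihood model to the 16 vehicle libraries with genotype label as covariate, after filterByExpr (minimum count 10, total 15), with Benjamini-Hochberg adjustment over all genes tested. CPM used scaling over 88 libraries (72 vehicle and 16 TCDD); 56 TCDD libraries were not used here. Differences between labels or treatments were interaction terms at an adjusted p under 0.05. Members, gene lists and tests were chosen with earlier results of these data known. Named genes were the 12 called genes with the largest change each way among those with non-overlapping libraries and a mean of at least 1 CPM at one time, preset and up to 3 called members each way of each list, receptor targets and *Pkm*. Further named genes were list members picked after their values were seen. Library measures were compared by a two-sided exact permutation test. The model was tested on simulated counts. Alternatives used DESeq2 1.42.0 and sva 3.50.0, other filters, covariates and samples. Omission of libraries that stood apart, and the GC correction, were added after seeing the data. Results for a few named genes are not reported here.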

Additional observations from a re-analysis of the deposited data

Results flagged for a closer look

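Over 33 items in each of the 4 groups of 4 libraries, 10 values had 1 library set far apart from its 3 companions by Dixon's ratio, and chance gives about 1 in 20. Library 23 (WT label, 48 h) was apart for *Pkm* at 1160 CPM (others 140.9 to 232) and *Slc10a1* at 3.06 CPM (1.33 to 1.62). Library 21 (WT label, 48 h) was apart for *Cyp1a1* at 3150 CPM (1.25 to 2.31) and *Cyp3a11* at 92.6 CPM (21.2 to 33.3). Library 94 (PkmΔDRE label, 48 h) was apart for the share of pairs on no gene at 11.3% (4.87% to 5.36%), *Mcm2* at 84.6 CPM (147 to 158) and *Cyp2e1* at 17.3 CPM (29.3 to 31.6). At 24 h library 91 (PkmΔDRE label) was apart for *Spp1* at 71.4 CPM (1.31 to 5.34), library 19 (WT label) for *Ccnb1* at 3.11 CPM (1.47 to 1.75) and library 20 (WT label) for *Cyp1a1* at 55.3 CPM (0.692 to 2.07).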

How the results depend on the processing

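The 1499 vehicle calls became 2318 with 1 surrogate variable, 2386 in 1 fit of 70 vehicle libraries of all times, and 733 and 208 in the labels WT and PkmΔDRE alone, which hold 4 against 4 libraries. Of those calls 1494, 1465, 644 and 206 were shared in the same direction. The difference between labels and that between treatments each went from 0 calls to 1 with DESeq2. The other settings stayed within 1.5 times, from 1026 calls with the unmapped share as covariate to 2069 with DESeq2, and leaving out 1 library gave 1154 to 1588. None of 227 tested named genes reversed a call in any setting, and 42 of them lost the call with the unmapped share as covariate. No paired analysis was possible because the labels tie no library to an animal or isolation and their replicate order is only that of accession. Genes at few pairs at 24 h limit the size of the largest rises.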

Other observations

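Counts for other gene groups over the same interval in the edgeR fit are set against the 11.2% of all genes that were called. Among 15 periportal genes 7 fell and 1 rose (53.3%), and among 11 pericentral genes 3 fell and none rose (27.3%). *Hal*, which breaks down histidine in periportal cells, and *Gulo*, the last step of vitamin C synthesis, fell. *Rgn*, a gluconolactonase of the same route, fell by 3.00 on the log2 scale and *Asgr1*, the asialoglycoprotein receptor, by 2.61. Of 234 tested *Slc* genes 13 rose and 30 fell (18.4%, with 8 and 23 without library 95), with *Slc22a7*, an organic anion transporter, falling by 3.27 and *Slc25a4*, a mitochondrial adenine nucleotide carrier, rising by 2.13. Of 18 circadian clock genes 2 fell (11.1%), among them *Cry1* by 0.99. Of 37 conjugation enzymes 5 rose and 6 fell (29.7%), and *Gstp2*, a glutathione transferase, rose by 1.65. Of 77 mitochondrial ribosomal protein genes 4 fell and none rose (5.19%), with 2 to 5 falling when 1 library was left out, 1 without libraries 21, 89 and 90 and 10 under the GC correction.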
